A study of Mus musculus with 4 samples.

Results

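The cytoplasmic ribosomal protein genes were examined in nascent RNA of double positive (DP) thymocytes, developing T cells that carry both CD4 and CD8, with and without Tox4, an HMG protein that binds PP1 phosphatases. Members were all rows of the deposited fragment count table named Rpl or Rps and a digit, together with Rplp0, Rplp1, Rplp2 and Rpsa. Rows of the Rps6k kinases and rows marked as pseudogenes by -ps were left out. The rule took 89 of 24984 rows. They comprised 31 proteins of the small (40S) subunit, 46 of the large (60S) subunit, of which 3 form its stalk, and 12 paralogs and other rows such as Rps27l, Rpl22l1 and Rps19bp1, which codes for a binding partner of Rps19 and not for a ribosomal protein.

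The assay was TTchem-seq, in which RNA made during a short 4-thiouridine (4sU) pulse is fragmented, enriched and sequenced. There were 2 libraries of control mice, labelled Tox4;F/F and called WT here, and 2 of Tox4;F/F;Lck+ mice, called cKO. Exons 4 to 6 of Tox4 are flanked by loxP sites in both genotypes, so the WT mice carried the floxed alleles too. Per the study's methods the mice were littermates of 6 to 8 weeks on a C57BL/6 background, Cre was driven by the proximal Lck promoter and acts from the DN3 stage onward, and DP cells were cultured for 0.5 h before labelling.

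Each ribosome is built from 1 copy of nearly every one of these proteins, and the genes are among the most strongly transcribed of a cell. Their mRNAs mostly begin with a C and a run of further pyrimidines, the 5′ terminal oligopyrimidine (TOP) tract, through which mTOR signalling and La-related proteins control their translation. In the thymus, ribosome production accompanies the rapid division of DP blasts, and Rpl22, a 60S protein, is known to be required by developing αβ T cells.

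The annotated starts are printed for 9 members because this pyrimidine run was the sequence feature the genes shared. Each line gives 20 bases before the annotated start and 30 bases from it on, on the sense strand, from RefSeq on GRCm38.p6, and capitals mark the longest run of C or T. Rpl7a had the longest run among the 62 members whose starts were compared, Rplp2, Rps27 and Rpl7a are described below as low in cKO, Rps26 as the tested member with the highest fold change, and Rpl22 is shown as a member whose longest run was short.
Rpl7a, chr2:26910787-26910836, plus strand: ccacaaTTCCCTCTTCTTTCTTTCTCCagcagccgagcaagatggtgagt
Rpl15, chr14:18270957-18271006, minus strand: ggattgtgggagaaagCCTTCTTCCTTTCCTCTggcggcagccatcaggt
Rpl28, chr7:4792945-4792994, plus strand: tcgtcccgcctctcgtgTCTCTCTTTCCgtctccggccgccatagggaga
Rplp2, chr7:141447631-141447680, plus strand: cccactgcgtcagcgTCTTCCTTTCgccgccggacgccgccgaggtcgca
Rps6, chr4:86857338-86857387, minus strand: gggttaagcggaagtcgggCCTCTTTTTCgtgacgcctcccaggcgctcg
Rps9, chr7:3704021-3704070, plus strand: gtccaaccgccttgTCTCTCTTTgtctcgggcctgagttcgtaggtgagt
Rps27, chr3:90213619-90213668, minus strand: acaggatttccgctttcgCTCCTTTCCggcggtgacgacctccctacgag
Rps26, chr10:128626477-128626526, minus strand: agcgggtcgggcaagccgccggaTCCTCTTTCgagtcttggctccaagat
Rpl22, chr4:152324416-152324465, plus strand: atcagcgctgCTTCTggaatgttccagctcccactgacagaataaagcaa

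A RefSeq promoter was matched to 68 of the 89 members. Of these, 62 were transcribed at a mean of at least 1 CPM (fragments of a gene per 1000000 fragments of the library) and had a promoter whose start was also a transcript start of the deposited row. Within the window from 30 bases before to 50 bases after the start, a run of at least 10 C or T was found on the sense strand for 41 of the 62 members (66.1%) and for 15.3% of 8865 genes of the table treated in the same way. The longest run in this window had a median of 10 bases among members and 6 bases among all these genes. It was 21 bases in Rpl7a, 17 in Rpl15, 11 in Rpl28 and 5 in Rpl22. In 15 members a run of at least 8 bases covered the annotated first base itself, as the run of Rps6 did. The letters CTTTC, which can lie inside such a run, stood in the same window of 31 of the 62 members and of 10.4% of all genes. Over the whole 300 bases and both strands, CCGGAAG, an ETS factor core, was present for 38.7% of members and 21.7% of genes, GGGCGG, an SP1 core, for 64.5% and 69.2%, and TATAA for 25.8% and 14.9%. These matches describe letters in a window and are not binding sites. Members without an entry included Rplp1, Rps29, Rpl3 and Rpl36.

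**Figure D1:**
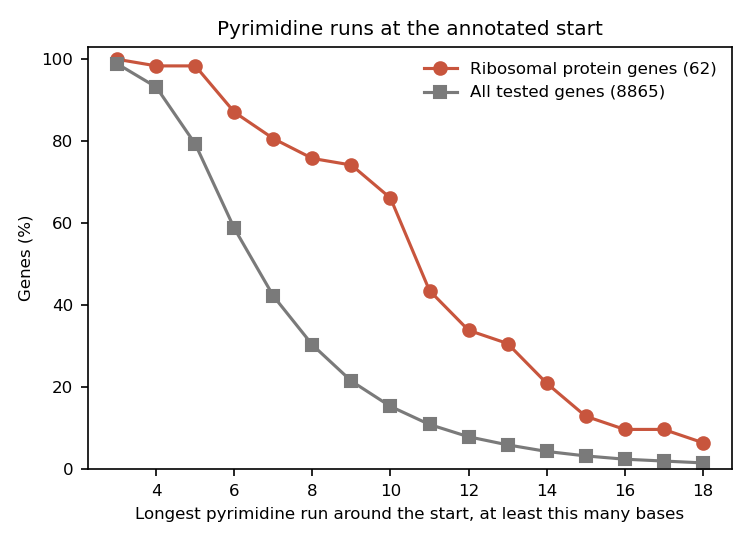
Share of genes (vertical axis, %) whose longest run of pyrimidines, from 30 bases before to 50 bases after the annotated start, reached at least the length on the horizontal axis (bases). Circles are the 62 members and squares the 8865 genes of the table. At 10 bases the shares were 66.1% and 15.3%.

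The libraries held between 38429786 and 48690591 fragments, and 84 members reached a mean of 1 CPM and are called tested below. The other 5 were Rps4l, Rpl10l, Rpl32l, Rpl39l and Rpl3l. Counted intervals ran from transcript start to end and so included introns. The 12 DP thymocyte genes summed to between 6398 and 7240 CPM per library, in accordance with the label, whereas 6 erythroid genes summed to at most 0.73 CPM and 4 of thymic epithelium to at most 1.13 CPM. The B cell and myeloid lists summed to between 4.02 and 11.2 CPM. The counted Tox4 interval covers the gene with its introns, whereas only exons 4 to 6 are floxed, so its level does not measure the deletion. The paper reports efficient deletion by Western blot of unsorted and sorted thymocytes. Tox4 was lower in both cKO libraries, at 74.04 and 70.3 CPM in WT and 59.3 and 57.2 CPM in cKO, or -0.31 on the log2 scale (SE 0.0998, DESeq2 adjusted p-value 0.0453). That call was lost with edgeR (adjusted p-value 0.153), with limma voom, with total count factors, with the length trend removed, with the replicate block and with any 1 library left out, while the log2 fold change stayed between -0.34 and -0.28. WT replicate 1 stood apart in Xist, the X inactivation RNA, at 172 CPM against at most 2.36 CPM in the other libraries. The Y-linked genes Ddx3y, Eif2s3y, Kdm5d and Uty summed to 1.55 CPM there and to between 267 and 310.4 CPM in the others, and were chosen after Xist was seen. The methods describe the animals as matched for sex, whereas by these genes WT replicate 1 differed in sex from WT replicate 2 and from both cKO libraries. In such bulk libraries fewer cells of a type and less RNA per cell cannot be told apart.

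Taken per kb of the counted interval, the ribosomal protein genes were transcribed far above the typical gene. The median of the 84 tested members was 15.5 CPM per kb, and that of all 11625 tested genes was 1.46 CPM per kb. All but Rpl37rt, at 1.06 CPM per kb, lay above the latter. The middle 80% of the 77 standard subunit genes ran from 7.14 to 36.3 CPM per kb, although nearly all of their proteins enter the ribosome in equal number. Members were short, with a median interval of 3102.5 bp and a range from 852 bp (Rpl36) to 11772 bp (Rps15a), against a median of 22650 bp among all tested genes. The 31 genes of the 40S subunit had a median of 18.6 CPM per kb, the 43 genes of the 60S subunit outside the stalk 14.7 CPM per kb, and the 7 tested paralogs and other rows 2.31 CPM per kb.

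Rpl41, which codes for the smallest ribosomal protein, had the highest density of all members. Its libraries stood at 146 and 170 CPM per kb in WT and at 172 and 108 CPM per kb in cKO, and it ranked 26 among all tested genes. Rplp1, an acidic stalk protein, followed at 105 and 113 CPM per kb in WT and 89.7 and 74.3 CPM per kb in cKO. These 2 genes stood clear of the next members, such as Rpl28 at a mean of 54.97 and Rps15 at 50.9 CPM per kb, whose ranges over the libraries overlapped.

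At the low end stood mostly paralogs. Rps27l, a p53 inducible paralog of Rps27, had a mean density of 1.72 CPM per kb against 27.3 CPM per kb for Rps27. Rpl22l1, which can replace Rpl22 in the ribosome, was at 1.81 CPM per kb and Rpl22 itself, the lowest of the 77 standard subunit genes, at 2.77 CPM per kb. Rpl36al, the autosomal relative of the X-linked Rpl36a, was an exception at 5.41 CPM per kb, above the 3.89 CPM per kb of Rpl36a. Among paralogs outside the tested set, Rpl10l, a testis gene, had 0 fragments in every library. A count of 0 there allows up to 3 fragments, and such limits cover counting error only.

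**Figure D2:**
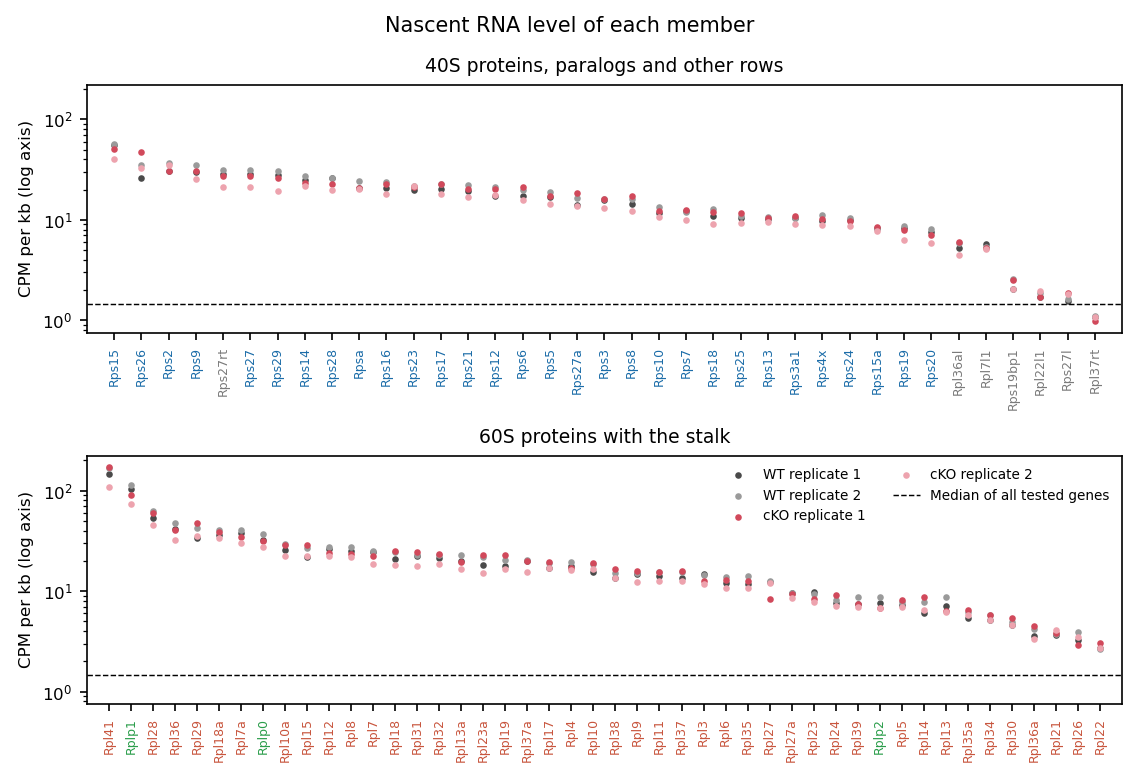
Nascent RNA of 83 of the 84 tested members in CPM per kb of the counted interval (vertical log axis), each point 1 library, genes ordered by their mean and coloured by class as blue for 40S, red for 60S, green for the stalk and grey for paralogs and other rows. The dashed line is the median of all tested genes, 1.46 CPM per kb, and Rpl41 and Rplp1 stand highest.

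To ask whether Tox4 loss changed the output of these genes, the genotypes were compared with the DESeq2 Wald test over the whole table. A gene was called at an adjusted p-value under 0.05 and a fold change of at least 1.2. Of the 84 tested members 1 was called lower in cKO, Rplp1, and 0 were called higher, and of all 11625 tested genes 3.71% were called, 1.57% lower and 2.14% higher. The edgeR quasi-likelihood test called 0 members and 0.499% of all genes. Without adjustment, 19 of the 84 members (22.6%) had a DESeq2 p-value under 0.05, all with lower values in cKO. Among all genes this held for 13.5%, and for 6.31% with lower values in cKO. By edgeR the unadjusted count was 14 of the 84 members, and 15.6% of all genes.

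The members nevertheless leaned to lower values in cKO. The median log2 fold change was -0.11, with the middle 50% between -0.21 and -0.02, and that of all tested genes was 0.00. A value below 0 was found for 65 of the 84 members and for 49.8% of all genes. Both cKO libraries lay below both WT libraries for 26 members, against 24.0% of all genes, and above them for 2 members, Rps27l and Rpl21, against 24.9% of all genes. Groups that did not overlap, in either direction, were thus seen for 28 members and for 48.9% of all genes. A decrease of at least 1.2-fold was seen for 13 of the 84 members and for 10.6% of all genes. An increase of that size was seen for 1 tested member, Rps26, and for 13.1% of all genes.

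The lean did not exceed the spread between replicates, for which the members' median deviation had a pooled SD of 0.14 on the log2 scale. Summed over all 89 members, the libraries stood at 4355 and 4831 CPM in WT and at 4607 and 3829 CPM in cKO, or 4593 ± 336 CPM and 4218 ± 550 CPM (SD, n = 2). cKO replicate 1 lay between the WT libraries and only cKO replicate 2 lay below both. Relative to the mean of the 4 libraries, the median log2 deviation of the members was -0.02 and 0.13 in WT and 0.06 and -0.18 in cKO, whereas that of all tested genes stayed within 0.01 of 0 after rounding in every library.

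The ribosomal protein genes thus moved together between libraries of one genotype. WT replicate 2 exceeded WT replicate 1 in 78 of the 84 members, with a median log2 difference of 0.15, and in 50.7% of all genes. cKO replicate 2 was below cKO replicate 1 in 77 members, with a median difference of -0.26, and in 53.3% of all genes. This difference within a genotype was larger than the difference between genotypes. cKO replicate 2 held the lowest value of 65 members and was below both WT libraries in 66 members, against 37.5% of all genes, while cKO replicate 1 was below both WT libraries in 30 members, against 37.0% of all genes, and above both in 32, against 40.1% of all genes. With each library left out in turn, the median log2 fold change was -0.19 without WT replicate 1, -0.03 without WT replicate 2, -0.24 without cKO replicate 1 and -0.0009 without cKO replicate 2.

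Other measures also differed between the libraries, and their part in these differences was not tested. The precursor ribosomal RNA Rn45s took 2.71% and 4.30% of fragments in WT and 2.44% and 4.05% in cKO, higher in replicate 2 of both genotypes. The 5 genes listed as markers of cycling cells summed to 187 and 334 CPM in WT and to 415 and 319 CPM in cKO, in the same order within each genotype as the ribosomal protein genes. Other genes up to the length of the longest member shifted less than the members did, but they were not matched to the members in length. The 3394 other tested genes no longer than the longest member had median log2 differences of 0.06 between WT replicates 2 and 1, -0.05 between cKO replicates 2 and 1 and -0.05 between genotypes. With a trend of each library against gene length removed, the members' median log2 fold change was -0.06.

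**Figure D3:**
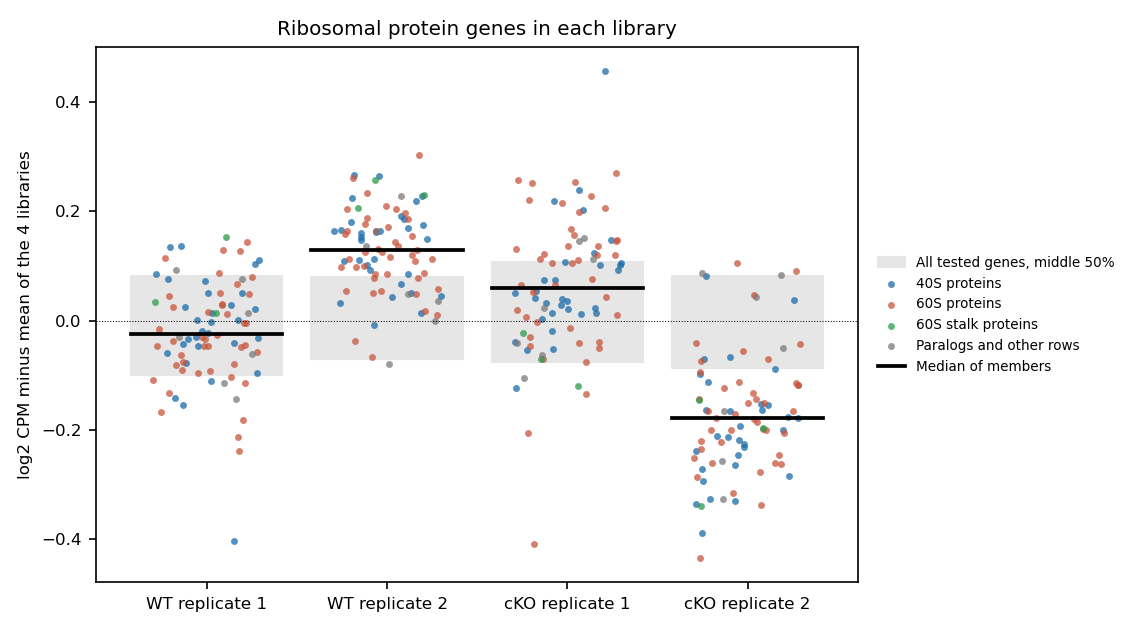
log2 CPM of each tested member minus its mean over the 4 libraries (vertical axis) in each library, 1 point per gene, coloured by class, with a black line at the members' median and a grey box over the middle 50% of all tested genes. The members' medians lie at -0.02, 0.13, 0.06 and -0.18 while the grey boxes stay around 0.

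The summed genes of both subunits ranked the libraries in the same order, and a difference between the subunits was not tested. The summed 40S genes stood at 1699 and 1885 CPM in WT and at 1793 and 1502 CPM in cKO, and the summed 60S genes at 2547 and 2832 CPM in WT and at 2706 and 2228 CPM in cKO. The ratio of the 40S sum to the 60S sum was 0.667, 0.666, 0.662 and 0.674 over the 4 libraries, so it varied by little while the sums themselves varied. The median log2 fold change was -0.13 among the 31 genes of the 40S subunit, with 28 below 0, and -0.11 among the 46 of the 60S subunit, with 32 below 0. It was -0.07 among the 7 tested paralogs and other rows.

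**Figure D4:**
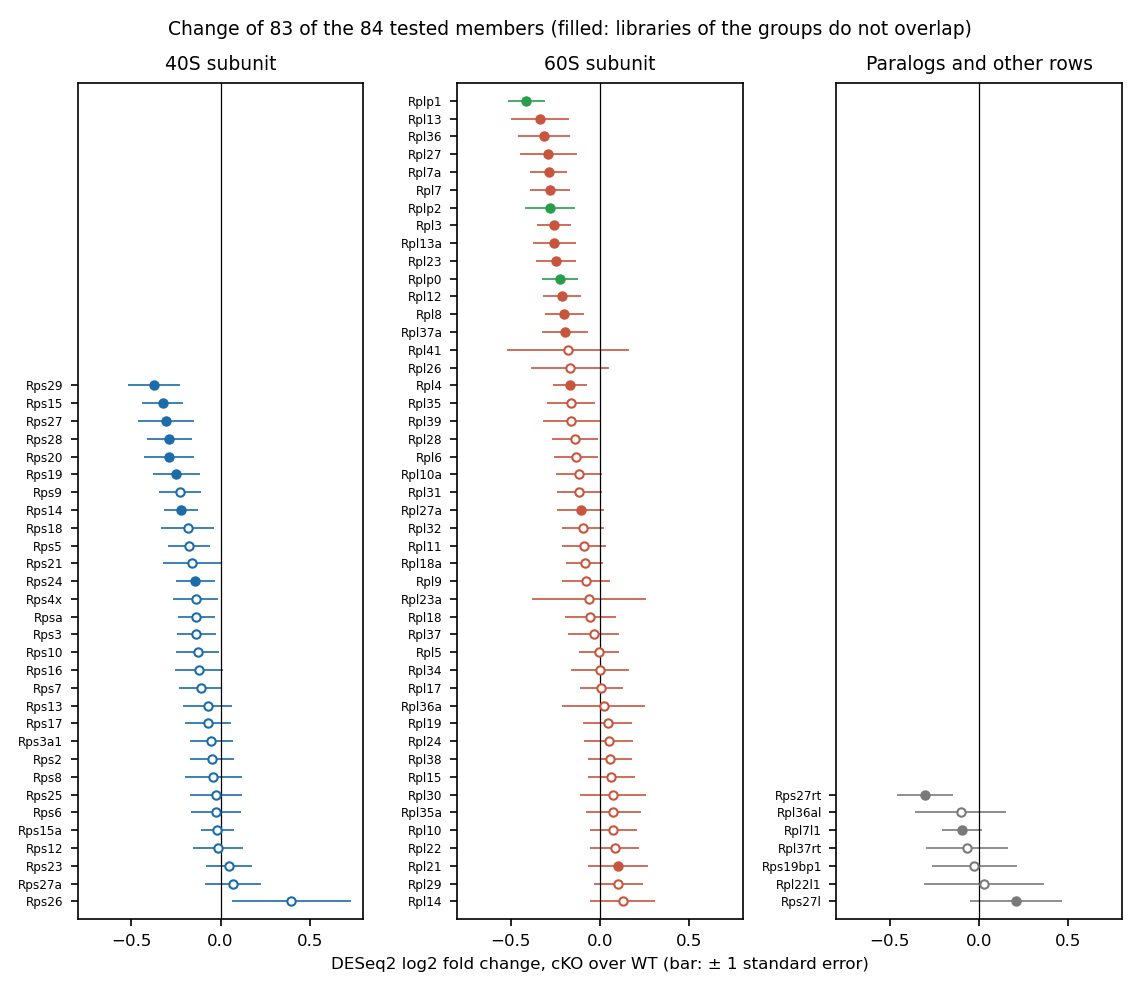
DESeq2 log2 fold change of cKO over WT (horizontal axis) with 1 standard error for 83 of the 84 tested members, in panels for 40S genes, 60S genes (stalk in green) and paralogs and other rows. Filled points are the 28 members whose WT and cKO libraries did not overlap, 26 to the left of 0 and 2 to the right.

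The 3 stalk genes were all lower in both cKO libraries, as were 24.0% of all tested genes, and 1 of the 3, Rplp1, passed the DESeq2 test. Rplp0, Rplp1 and Rplp2 code for the flexible stalk of the 60S subunit that recruits and activates the GTPases of elongation. Rplp1 (GRCm38 chromosome 9, 61913283 to 61914510, minus strand) was counted at 129 and 138 CPM in WT and at 110 and 91.3 CPM in cKO, from between 3629 and 6739 fragments. The mean was 134 ± 6.83 CPM in WT and 101 ± 13.3 CPM in cKO (SD, n = 2). DESeq2 gave a log2 fold change of -0.41 (SE 0.104) and an adjusted p-value of 0.00406. Both cKO libraries lay below both WT libraries, and they differed from each other by more than the WT libraries did. The call was lost with edgeR (adjusted p-value 0.150), with limma voom (0.133) and with the replicate block (0.0647 with DESeq2). The log2 fold change was -0.35 without WT replicate 2 and -0.29 without cKO replicate 2. It was -0.47 without WT replicate 1 and -0.54 without cKO replicate 1.

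Rplp0, the protein that anchors the stalk, was at 137 and 156 CPM in WT and at 133 and 118 CPM in cKO. The log2 fold change of Rplp0 was -0.22 (SE 0.0996, DESeq2 adjusted p-value 0.238). Rplp2, the partner of Rplp1 in the stalk dimers, was at 28.4 and 32.6 CPM in WT and at 25.4 and 24.98 CPM in cKO, or -0.28 on the log2 scale (SE 0.139, DESeq2 adjusted p-value 0.338). Neither passed the test, although in each the groups did not overlap. Omitting WT replicate 2 left -0.12 for Rplp0 and -0.17 for Rplp2 on the log2 scale, and omitting WT replicate 1 left -0.33 and -0.38.

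Among 40S genes, the largest decreases with separated groups were those of Rps29 and Rps15, proteins of the head of the small subunit. Rps29 was at 40.7 and 45.4 CPM in WT and at 37.99 and 28.6 CPM in cKO, a log2 fold change of -0.37 (DESeq2 adjusted p-value 0.147). Rps15 was at 93.4 and 96.9 CPM in WT and at 85.1 and 67.4 CPM in cKO, or -0.32 on the log2 scale (SE 0.115, DESeq2 adjusted p-value 0.0883). In both genes cKO replicate 2 was the lowest library by a wide margin and neither passed the test. Without that library the log2 fold change was -0.19 for Rps29 and -0.17 for Rps15, and without cKO replicate 1 it was -0.58 and -0.49.

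The 40S genes known from anaemias, Rps19 and Rps14, gave separated but small differences. Rps19, the gene most often mutated in Diamond-Blackfan anaemia, was at 43.2 and 45.6 CPM in WT and at 41.7 and 33.3 CPM in cKO (log2 fold change -0.25). Rps14, the gene of the 5q- syndrome, was at 98.8 and 107 CPM in WT and at 91.8 and 85.1 CPM in cKO (log2 fold change -0.22, DESeq2 adjusted p-value 0.213). Neither passed the test, and with libraries left out Rps19 ranged from -0.41 without cKO replicate 1 to -0.099 without cKO replicate 2.

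Other 40S genes overlapped between genotypes. Rps6, the substrate of the S6 kinases, was at 57.1 and 65.2 CPM in WT and at 69.4 and 51.0 CPM in cKO, with both the highest and the lowest library in cKO. Rpsa, also known as the laminin receptor precursor, was at 94.8 and 112 CPM in WT and at 96.1 and 92.8 CPM in cKO. Rps3, of the mRNA entry site, had a log2 fold change of -0.13, and Rps2, its neighbour at that site, of -0.05. Rps3 moved to -0.0026 when cKO replicate 2 was omitted, and Rpsa to -0.00044 when WT replicate 2 was. Rps27a, which is made as a fusion to ubiquitin, had 0.07. The 95% interval of Rps6, from -0.30 to 0.25 on the log2 scale, leaves room for changes of either direction.

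Rps26, a protein at the mRNA exit site, had the highest fold change of the 84 tested members, but its groups overlapped. It was at 51.9 and 69.5 CPM in WT and at 94.7 and 65.7 CPM in cKO. cKO replicate 1 stood high and cKO replicate 2 fell between the WT libraries. The log2 fold change was 0.40 (SE 0.332, DESeq2 adjusted p-value 0.683). Once the trend with gene length was removed it was 0.47, with an adjusted p-value of 0.0213, and no other fit run called it.

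In the 60S subunit outside the stalk, Rpl13 and Rpl36 had the largest decreases with separated groups. Rpl13 was at 20.5 and 25.3 CPM in WT and at 18.5 and 17.9 CPM in cKO (log2 fold change -0.33, SE 0.163). Rpl36 was at 35.3 and 41.0 CPM in WT and at 34.2 and 27.3 CPM in cKO (log2 fold change -0.31, SE 0.146). The DESeq2 adjusted p-values were 0.315 and 0.280, so neither passed. Omitting WT replicate 1 moved Rpl13 to -0.48 and omitting WT replicate 2 moved it to -0.17. Rpl36 lay between -0.48 without cKO replicate 1 and -0.16 without cKO replicate 2.

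Rpl3, a protein that reaches toward the peptidyl transferase centre, had the least spread between replicates among these. It was at 82.2 and 82.2 CPM in WT and at 71.4 and 66.5 CPM in cKO. Its difference was -0.26 on the log2 scale (SE 0.0965), and leaving out any library kept it between -0.30 and -0.21. The DESeq2 adjusted p-value was 0.120, above the threshold. Rpl7a, the gene with the pyrimidine run of 21 bases, was at 94.3 and 102 CPM in WT and at 86.4 and 74.8 CPM in cKO (log2 fold change -0.29, DESeq2 adjusted p-value 0.0979).

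Rpl27 ran against the order of the cKO libraries that most members shared. It was at 41.2 and 42.6 CPM in WT and at 28.2 and 40.5 CPM in cKO. Here cKO replicate 1 was the low library, whereas in Rpl41 it was the high one, at 155 and 180 CPM in WT and 182 and 115 CPM in cKO. Both genes were chosen for these sentences after their values were seen. The log2 fold change of Rpl41 was -0.18 (SE 0.342), but without cKO replicate 1 it was -0.54, and without cKO replicate 2 it was 0.11.

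Rpl5 and Rpl11, which bind the 5S ribosomal RNA and, when free, the p53 ligase Mdm2, showed no difference at this precision. Rpl5 was at 61.5 and 65.7 CPM in WT and at 68.7 and 58.5 CPM in cKO, and its 95% interval ran from -0.22 to 0.22 on the log2 scale. Rpl11 was at 56.8 and 63.1 CPM in WT and at 62.7 and 50.4 CPM in cKO, with an interval from -0.33 to 0.16. Rpl23, another protein known to bind Mdm2, was at 47.7 and 46.2 CPM in WT and at 41.0 and 38.2 CPM in cKO, a separated difference of -0.25 on the log2 scale with a DESeq2 adjusted p-value of 0.276.

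Further 60S genes of known function gave small values. Rpl38, linked to the translation of Hox mRNAs, had a log2 fold change of 0.05. Rpl10a, whose presence varies among ribosomes, had -0.12, and Rpl7 had -0.28 with separated groups. Rpl13a, which can leave the ribosome on interferon signalling, had -0.26 with separated groups. None of these passed the test. Omitting cKO replicate 2 left -0.15 for Rpl7 and omitting WT replicate 2 left -0.13 for Rpl13a. Rpl21 was the only 60S gene with both cKO libraries above both WT libraries, at 15.2 and 15.4 CPM in WT and 15.95 and 16.9 CPM in cKO, a log2 difference of 0.10.

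Rpl22, the member with a known role in αβ T cell development, was at 26.4 and 25.4 CPM in WT and at 29.0 and 25.9 CPM in cKO. Its log2 fold change was 0.08, with a 95% interval from -0.19 to 0.35. Rpl22l1, whose mRNA is repressed by Rpl22 in other settings, was at 3.31 and 3.57 CPM in WT and at 3.31 and 3.72 CPM in cKO, from between 127 and 174 fragments. The groups overlapped in both genes, and the interval of Rpl22l1, from -0.63 to 0.68, was too wide to exclude a change of moderate size.

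Of the other paralogs, Rps27l was higher in both cKO libraries, at 5.42 and 5.57 CPM in WT and 6.43 and 6.29 CPM in cKO. The log2 fold change of 0.21 (SE 0.257) did not pass the test (DESeq2 adjusted p-value 0.815). Rps27, its standard counterpart, was at 27.99 and 31.1 CPM in WT and at 27.0 and 21.1 CPM in cKO, in the opposite direction, and the difference between these 2 changes was not tested. Rpl7l1, a relative of Rpl7, had a log2 fold change of -0.10 and Rpl36al also -0.10. Rps19bp1 had -0.03.

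**Figure D5:**
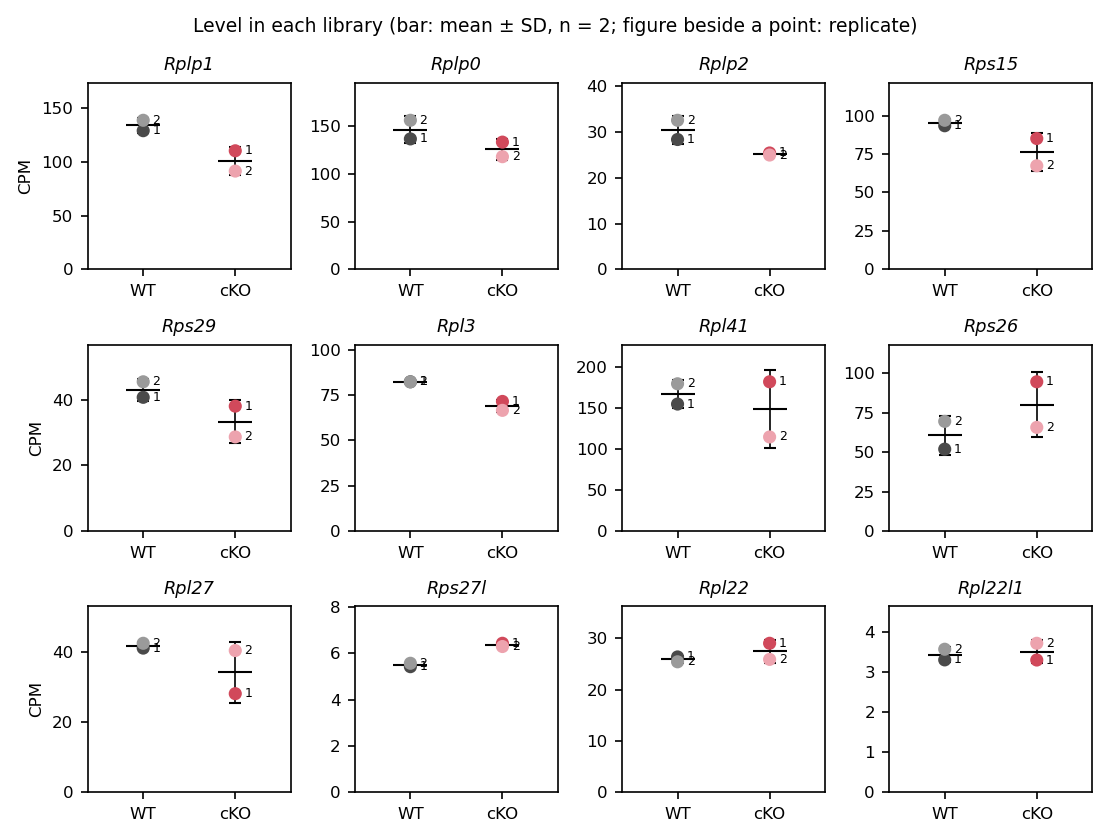
CPM (vertical axis, from 0) of 12 members in each WT and cKO library, with the replicate number beside each point and bars for the mean ± SD of 2 libraries. The stalk genes Rplp0, Rplp1 and Rplp2 are lower in both cKO libraries, Rpl41 and Rps26 spread widely within cKO, and in Rpl27 only cKO replicate 1 stands far from the rest.

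The 4 X-linked members did not differ beyond their spread, in libraries of which WT replicate 1 alone had Xist above 2.36 CPM. Rps4x was at 43.3 and 49.6 CPM in WT and at 45.3 and 39.4 CPM in cKO. Rpl10, a late joining 60S protein, was at 35.8 and 42.8 CPM in WT and at 44.3 and 38.7 CPM in cKO. Rpl39, of the exit tunnel, had a log2 fold change of -0.16 and Rpl36a of 0.02. None of these members was at its highest in WT replicate 1.

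Some members held the same counts as another row of the table. Rps27 and Rps27rt cover nearly the same interval on chromosome 3 and held equal counts in all 4 libraries, from 837 to 1516 fragments each. Rpl34 and Rpl34-ps1, and Rpl26 and Gm15772, were likewise equal in 4 of 4 libraries. Whether such fragments were divided between the rows or counted in full in each is not known, so the levels of these members are uncertain. Fractions occurred in 19.4% of member values and in 8.61% of all values. In addition 23 tested members held small nucleolar RNA rows in their intervals, 33 rows in all. The median log2 fold change was -0.12 with such rows and -0.11 among the 61 members without.

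Members with long and with short pyrimidine runs at the start had similar changes. The 41 members with a run of at least 10 bases had a median log2 fold change of -0.11, with 31 below 0, and the 21 members with shorter runs had -0.12, with 17 below 0. Their median levels were 14.4 and 10.3 CPM per kb. The lengths of run compared were chosen with values in view, and no test was made.

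The machinery around the ribosome was described by lists that did not overlap with the members. Of 3 ribosomal proteins whose names the rule does not take, 1 was called lower, Rack1, against 1.57% of all tested genes. Rack1, a scaffold on the 40S head, was at 120 and 125 CPM in WT and at 102.6 and 94.8 CPM in cKO, a log2 fold change of -0.32 (SE 0.0903). The adjusted p-value was 0.0158 with DESeq2 and 0.136 with edgeR, and with any 1 library left out the DESeq2 call was lost.

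Of 42 translation factors, 1 was called lower and 0 higher, against 1.57% and 2.14% of all tested genes. Values below 0 were found for 37, around a median of -0.07, and for 49.8% of all genes. Both cKO libraries lay below both WT libraries for 16 and above them for 1, against 24.0% and 24.9% of all genes. The list summed to 4259 and 4275 CPM in WT and to 3972 and 4030 CPM in cKO. The called gene was Eef2, the GTPase that moves the ribosome along the mRNA and acts through the stalk. It was at 372 and 412 CPM in WT and at 301 and 320 CPM in cKO, a log2 fold change of -0.34 (SE 0.0828). The adjusted p-value was 0.00242 with DESeq2 and 0.13 with edgeR, and the DESeq2 call was lost without WT replicate 2, without cKO replicate 1 and without cKO replicate 2. Unlike in most ribosomal protein genes, cKO replicate 1 was the lower of its cKO libraries.

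Of 45 ribosome assembly factors, 1 was called higher and 1 lower, against 2.14% and 1.57% of all tested genes. The list had 25 values below 0 around a median of -0.01. Nat10, which acetylates ribosomal RNA, rose from 26.6 and 22.1 CPM in WT to 45.3 and 45.2 CPM in cKO, by 0.89 on the log2 scale (SE 0.132), and the adjusted p-value was 7.06e-09 with DESeq2 and 0.0336 with edgeR. Of the fits run, only edgeR with the replicate block did not call it (adjusted p-value 0.0533). Nop56, a core protein of box C/D small nucleolar ribonucleoproteins, was at 72.8 and 71.6 CPM in WT and at 59.1 and 58.1 CPM in cKO, with an adjusted p-value of 0.0492 with DESeq2 and 0.150 with edgeR, and its DESeq2 call was lost with TMM factors (adjusted p-value 0.0502), with total count factors, with the length trend removed, with the replicate block and with any 1 library left out. Of 16 regulators of mTOR and TOP mRNAs, 0 were called by DESeq2 and by edgeR and 0 had an unadjusted DESeq2 p-value under 0.05. Among all tested genes these shares were 3.71%, 0.499% and 13.5%.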

How the data were processed

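TTchem-seq of DP thymocytes gave 1 library from each of 2 WT and 2 cKO samples, placed by their titles. Per the labels, the authors used fastp 0.13.1, STAR 2.7.9a and featureCounts 1.6.1 on mouse build GRCm38. Deposited values were expected counts of fragments over transcript intervals, introns included, and some were fractions. The study's methods instead name the gene counting of STAR and strand-specific libraries. How fragments shared among rows were assigned and whether the count used strand are not given in the sources used here. Per the study's methods, labelled yeast RNA was added to every sample as spike-in but not used for normalization, and CPM values cannot show a change shared by all genes. Deposited values were rounded for the tests, and CPM and CPM per kb were computed here from table totals and deposited lengths.

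Following the study's methods, genotypes were compared with the DESeq2 Wald test (DESeq2 1.42.0, R 4.3.3) over the whole table, with default size factors and Benjamini-Hochberg adjustment. Calls needed a 1.2-fold change, a mean of at least 1 CPM and an adjusted p-value under 0.05. Log2 deviations of libraries used log2(CPM + 0.5). Alternatives included edgeR 4.0.16, limma 3.58.1 voom, other scaling, a replicate block and each library left out. A fit with 1 library left out has 1 library in a group, so its p-values and calls take their spread from the other group alone. Fits were tested on simulated data. The members, the lists and the tests were chosen with earlier results of these data known. Named genes were Tox4, members fixed by their role, called members, the 5 largest separated changes each way, the 5 highest and 5 lowest per kb, X-linked members and called genes of the lists. Rpl7a, Rpl15, Rpl27, Rps9 and Rps26 were named after their values were seen. Gene roles are background. Some items that the rule takes are not reported here. WT replicates differed by a chi-square of 40.7 per degree of freedom over 11625 genes and cKO replicates by 30.7, so none was a repeat deposit. Samples are taken as separate mice per the study, so p-values measure the spread between 2 samples each. Fragments carry no molecular identifiers and are not independent molecules. Sequences came from RefSeq promoters (GRCm38.p6).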

Additional observations from a re-analysis of the deposited data

How the results depend on the processing

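The median log2 fold change of the members was -0.11 under other size factors and between -0.13 and -0.06 over all alternatives that kept the 4 libraries, and 25 or 26 members had separated lower groups under 3 scalings. The call of Rplp1 was the 1 call among members under DESeq2 with TMM or total count factors, with size factors estimated without the members, with stricter or no filters, and with fractions cut off. The count was 0 with edgeR, 0 with limma voom, 0 when a 1.5-fold change was required and 2 with the length trend removed, where Rps26 was added. With each library left out in turn it ranged from 0 to 2. The replicate numbers did not pair the samples (correlation of same-numbered deviations -0.03), and with the replicate block the number of called members was 0 with DESeq2 and 0 with edgeR, while calls over all genes went from 431 to 193 and from 58 to 28.

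For the lists, edgeR called 0 translation factors, 1 assembly factor (Nat10) and 0 of the 3 proteins outside the name rule. With the replicate block DESeq2 called 1 assembly factor, 0 proteins outside the name rule and, as before, Eef2. With libraries left out, the ranges were 0 to 1 translation factors, 1 assembly factor in every fit, and 0 proteins outside the name rule in every fit. The causes of these losses were not tested.

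Of 38 named members, 23 kept one direction under every fit run and 15 did not, none of which was called with all 4 libraries in the fit. With the length trend removed, Rps19bp1 turned to 0.027, Rps6 to 0.028, Rps2 to 0.032 and Rpl5 to 0.028 on the log2 scale. With libraries left out, the log2 fold changes ranged from -0.54 to 0.11 for Rpl41, from -0.33 to 0.037 for Rpl28, from -0.15 to 0.018 for Rpl37rt, from -0.066 to 0.12 for Rpl22l1, from -0.19 to 0.15 for Rps19bp1, from -0.054 to 0.22 for Rpl10, from -0.21 to 0.23 for Rpl36a, from -0.26 to 0.18 for Rps6, from -0.18 to 0.10 for Rps2, from -0.15 to 0.26 for Rps27a, from -0.12 to 0.10 for Rpl5, from -0.31 to 0.059 for Rpl10a, from -0.25 to 0.057 for Rpl11, from -0.33 to 0.10 for Rpl36al and from -0.085 to 0.19 for Rpl38. Members that kept their direction but moved by over 1.5 times included Rps27 (-0.48 to -0.14), Rps4x (-0.24 to -0.030), Rpl39 (-0.28 to -0.034), Rpl7l1 (-0.14 to -0.057), Rpl22 (0.0064 to 0.16) and Rpl21 (0.054 to 0.15). The 2 libraries of each group limit what can be called, and the median standard error of the members was 0.13 on the log2 scale.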

Other observations

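The 33 small nucleolar RNA rows that lie inside tested members summed to 45.1 and 39.3 CPM in WT and to 31.2 and 33.8 CPM in cKO. Both cKO libraries thus lay below both WT libraries, as they did for 24.0% of all tested genes. Rows such as Snora65 held fractional counts (114.5 in WT replicate 1), and how fragments shared with the surrounding member were assigned is not known. The median log2 fold change of the 23 members that hold such rows was -0.12. Rows named Rpl or Rps and marked -ps, which the rule left out, summed to 21.4 and 24.3 CPM in WT and to 25.3 and 21.6 CPM in cKO.

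Rpl3l, the striated muscle paralog of Rpl3, was below the 1 CPM needed for a call. It was counted at 12 and 17 fragments in WT and at 50 and 35 fragments in cKO, or 0.282 and 0.349 CPM against 1.301 and 0.880 CPM, with a log2 fold change of 1.78 (SE 0.755), an unadjusted DESeq2 p-value of 0.0181 and an edgeR adjusted p-value of 0.218. Rpl39l was at most at 0.0822 CPM and Rps4l at most at 0.352 CPM in any library.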
